A study of Mus musculus with 2 samples.

Results

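The 9 genes Foxp3, Il2ra, Ikzf2, Ikzf4, Areg, Il1rl1, Tbc1d4, Maf and Il10 are commonly read as identity genes of regulatory T cells. They were taken by name, with earlier results of these data known, and all 9 were found among the 31053 genes of the count tables. Immune cells with high CD45 had been sorted on day 20 out of brain tumours that grew from GL261 glioma cells in C57BL/6 mice. One group drank control water and the other drank water with metformin, and each group was 1 library of the 10x Genomics 3' v3 chemistry. How many mice made up a library, which sex they were, how much metformin they drank and how the sort was gated are not in the labels used here. With 1 library in each group there is no replicate check, so no test was run and cells were not counted as replicates. Raw molecule counts (UMIs) were summed per library and cell class and divided by all UMIs of that class to give counts per 1000000 UMIs (CPM). All ratios of CPM are metformin over control unless named otherwise, and all intervals are 95% intervals that cover counting error only.

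Classes of T cells were set by their own transcripts among the T, NK and innate lymphoid clusters, where a cell also needed a UMI from Cd3d, from Cd3e or from Cd3g. Cells with at least 2 Trdc UMIs were taken as gamma-delta T cells. Of the others, cells with at least 1 Foxp3 UMI were called Foxp3-positive, and those without Foxp3 were called CD4 or CD8 T cells when they had a UMI of Cd4 alone or of Cd8a or Cd8b1 alone. This gave 283 control and 273 metformin Foxp3-positive cells, 569 and 371 CD4 T cells, 735 and 724 CD8 T cells, and 101 and 120 gamma-delta T cells. Of the CD4 T cells, 34 in control and 31 in metformin (5.98% and 8.36%) fell in a Treg-like cluster described below. Their transcripts count in the CD4 levels. The libraries held 5373 and 4569 cells after filtering, with medians of 7295 and 7926 UMIs, and 8 of the barcodes kept occurred in both libraries. Foxp3-positive cells had medians of 6986 and 8215 UMIs.

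Regulatory T cells are CD4 T cells that restrain other immune cells and are set by the transcription factor Foxp3. They take up interleukin-2 through a high-affinity receptor that contains the product of Il2ra, and in tissues many respond to interleukin-33 through the receptor encoded by Il1rl1 and secrete amphiregulin, a growth factor linked to tissue repair. In brain tumours they are known as a suppressive part of the infiltrate.

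Between the libraries, the transcription factor genes of Foxp3-positive cells were at similar levels, while the interleukin-33 receptor gene Il1rl1 and the growth factor gene Areg were higher in the metformin library. A gene was called higher or lower on 3 conditions: the higher library reached 50 CPM and 20 UMIs, the libraries differed by 1.5-fold or more, and the interval of the ratio did not hold 1. By this rule of size 2 members, Areg and Il1rl1, were higher and 0 were lower among the 8 members with enough UMIs, beside 1% of all 2795 genes called higher and 1.4% called lower. Tbc1d4 was under the minimum of 50 CPM in both libraries and could not be called. The share of Foxp3-positive cells among T cells was 13.3% in control and 14.2% in metformin (ratio 1.07, interval 0.904 to 1.27).

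**Figure D1:**
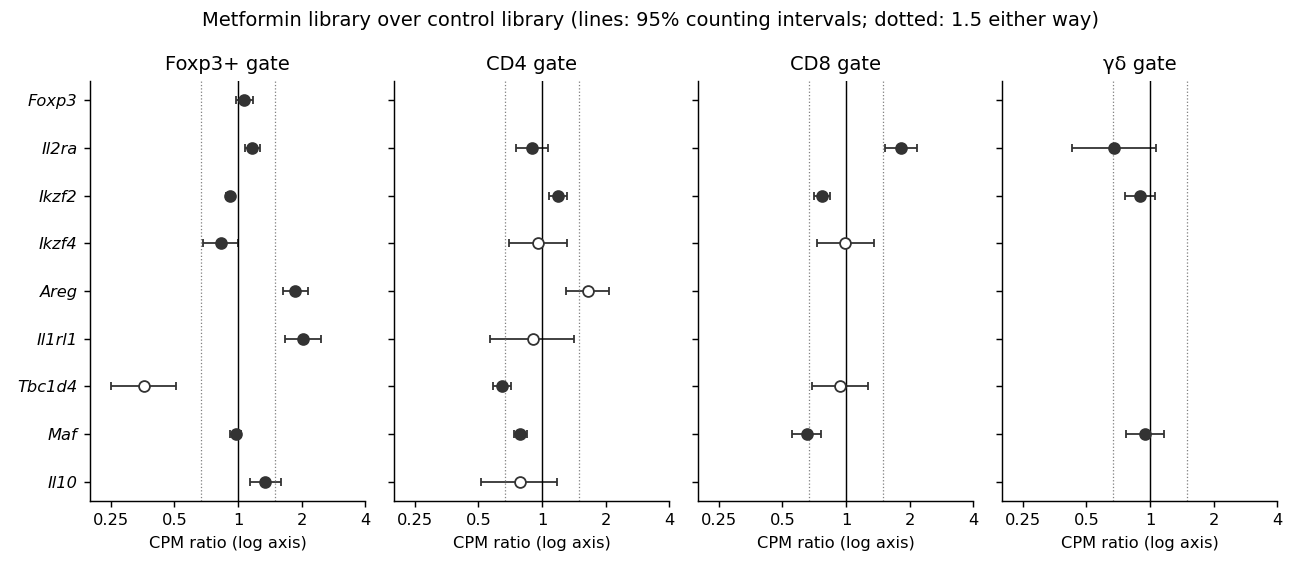
Ratio of CPM, metformin over control, of each gene in the Foxp3-positive, CD4, CD8 and gamma-delta T cell gates on a log axis, with 95% counting intervals. Filled points had at least 50 CPM and 20 UMIs in 1 library, open points did not, and genes under 20 UMIs in both libraries are left out. In Foxp3-positive cells Areg (1.87) and Il1rl1 (2.02) lie to the right of the dotted line at 1.5, and the open point of Tbc1d4 lies at 0.359.

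Foxp3 encodes the forkhead factor that sets the lineage (ENSMUSG00000039521, GRCm38 chromosome X, 7573644 to 7595245, plus strand). Foxp3-positive cells held 899 Foxp3 UMIs in control (319 CPM, interval 299 to 341) and 1000 in metformin (341 CPM, interval 320 to 363). The intervals of the 2 libraries overlapped, and the ratio was 1.07 (interval 0.976 to 1.17). The gate itself requires Foxp3, so its absence from the CD4 and CD8 gates is no result. In the gamma-delta gate, where Foxp3 was not used, 5 and 1 Foxp3 UMIs were counted.

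Ikzf2 encodes Helios, an Ikaros family zinc-finger factor known from thymus-derived regulatory T cells (ENSMUSG00000025997, chromosome 1, 69531214 to 69687245, minus strand). It was found in 93.3% of control and 95.2% of metformin Foxp3-positive cells. Its 3949 control UMIs came to 1401 CPM (interval 1358 to 1446) and its 3770 metformin UMIs to 1286 CPM (interval 1245 to 1328). The level was slightly lower in metformin, and the ratio of 0.918 (interval 0.877 to 0.960) was far from the size that counts as a call. Ikzf2 was not restricted to these cells: gamma-delta T cells had 375 and 335 CPM, above the 182 and 218 CPM of CD4 T cells and the 161 and 124 CPM of CD8 T cells. Most cells of the gamma-delta gate were outside the gamma-delta T-like cluster, with 44.6% of control and 52.5% of metformin cells in a T cell cluster led by Klra1 and Klra6.

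Ikzf4 encodes Eos, a related factor known as a partner of the Foxp3 protein in gene repression (ENSMUSG00000002578, chromosome 10, 128630843 to 128645991, minus strand). Foxp3-positive cells had 240 control UMIs (85.2 CPM, interval 74.7 to 96.7) and 207 metformin UMIs (70.6 CPM, interval 61.3 to 80.9). The metformin level was the lower of the 2, the intervals overlapped, and the ratio was 0.829 (interval 0.685 to 1.0). In the other gates Ikzf4 stayed between 2.05 and 21.2 CPM.

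Maf encodes c-Maf, a leucine zipper factor that takes part in Il10 transcription (ENSMUSG00000055435, chromosome 8, 115682942 to 115707794, minus strand). Foxp3-positive cells held 2029 Maf UMIs in control (720 CPM, interval 689 to 752) and 2054 in metformin (701 CPM, interval 671 to 732). The levels overlapped, with a ratio of 0.973 (interval 0.915 to 1.04). CD4 T cells had 420 and 332 CPM, gamma-delta T cells 219 and 207 CPM, and CD8 T cells 51.8 and 33.7 CPM.

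Il2ra encodes CD25, the alpha chain of the interleukin-2 receptor (ENSMUSG00000026770, chromosome 2, 11642807 to 11693193, plus strand). Foxp3-positive cells held 1145 Il2ra UMIs in control (406 CPM, interval 383 to 431) and 1393 in metformin (475 CPM, interval 450 to 501). The metformin level was the higher and the intervals did not overlap, but the ratio of 1.17 (interval 1.08 to 1.27) was under the size that counts as a call. In those of the Treg-like cluster described below the levels were alike (517 and 521 CPM, ratio 1.01, interval 0.917 to 1.11). In those of the cycling T cell clusters they were 333 and 476 CPM (ratio 1.43, interval 1.21 to 1.69). The share of all Foxp3-positive cells with an Il2ra UMI was 77.4% and 82.4%. Thinned to 2797 UMIs a cell, with shallower cells left out (29 control and 14 metformin cells) and averaged over all possible draws, the shares were 55.8% and 59.0%, against 1.17% and 1.55% of B-like cells thinned to the same number. Thinned shares below are such averages.

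Il1rl1 encodes ST2, the interleukin-33 receptor, in a membrane form and a soluble form that gene counts do not separate (ENSMUSG00000026069, chromosome 1, 40429570 to 40465415, plus strand). Foxp3-positive cells held 150 Il1rl1 UMIs in control (53.2 CPM, interval 45.1 to 62.5) and 316 in metformin (108 CPM, interval 96.2 to 120). Metformin cells were the higher and the intervals did not overlap (ratio 2.02, interval 1.66 to 2.48). An Il1rl1 UMI was found in 58 control cells (20.5%) and 75 metformin cells (27.5%), and after thinning in 11.5% and 17.5%, against 0.258% and 0.0511% of B-like cells. The mean number of Il1rl1 UMIs per cell with at least 1 was 2.59 and 4.21. With the 5 richest cells of each library left out the ratio was 1.93 (interval 1.54 to 2.44), and with every cell weighted equally it was 2.13, so it did not rest on a few cells.

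Areg encodes amphiregulin, a ligand of the epidermal growth factor receptor (ENSMUSG00000029378, chromosome 5, 91139599 to 91148432, plus strand). Foxp3-positive cells held 314 Areg UMIs in control (111 CPM, interval 99.4 to 124) and 611 in metformin (208 CPM, interval 192 to 226). The metformin level was the higher, with a ratio of 1.87 (interval 1.63 to 2.15). The share of cells with an Areg UMI differed much less: 58 control cells (20.5%) and 54 metformin cells (19.8%) had 1 or more, and after thinning 12.3% and 13.3%, against 0.301% and 0.627% of B-like cells. The mean number of UMIs per Areg-carrying cell was 5.41 in control and 11.3 in metformin, and 30 control against 45 metformin cells had at least 2. Areg was concentrated in few cells of both libraries, where the 5 richest held 48.1% and 45.8% of its UMIs in the gate. Without those cells the ratio was 1.97 (interval 1.62 to 2.39), and with every cell weighted equally it was 1.46 and Areg no longer met the rule. UMIs of 1 cell are not independent, so the counting interval is too narrow for a gene spread this unevenly.

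Areg and Il1rl1 were the members called higher together, so their promoter windows in the RefSeq annotation of GRCm38.p6 are shown. Promoter windows, from 250 bases before to 50 after a start site, were given for 5 of the 9 members, Areg, Il1rl1, Il2ra, Tbc1d4 and Foxp3. Capitals mark matches on either strand to the cAMP response element TGACGTCA, its shorter form TGACG, the forkhead motif TGTTTAC, the STAT motif TTCNNNGAA and the GATA motif AGATAA.
Areg, chr5:91139349-91139648, plus strand: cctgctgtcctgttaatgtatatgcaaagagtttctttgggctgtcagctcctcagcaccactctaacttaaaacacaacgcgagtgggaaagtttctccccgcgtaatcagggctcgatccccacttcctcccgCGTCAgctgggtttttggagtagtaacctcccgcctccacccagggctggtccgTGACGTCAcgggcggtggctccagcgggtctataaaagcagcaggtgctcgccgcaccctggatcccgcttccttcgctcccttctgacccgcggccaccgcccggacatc
Il1rl1, upstream start, chr1:40429320-40429619, plus strand: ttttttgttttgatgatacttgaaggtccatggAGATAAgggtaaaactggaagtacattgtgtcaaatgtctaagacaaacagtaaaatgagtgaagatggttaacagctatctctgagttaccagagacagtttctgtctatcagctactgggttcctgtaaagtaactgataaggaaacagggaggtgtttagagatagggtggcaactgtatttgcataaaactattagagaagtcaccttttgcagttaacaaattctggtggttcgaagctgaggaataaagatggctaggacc
Il1rl1, downstream start, chr1:40439379-40439678, plus strand: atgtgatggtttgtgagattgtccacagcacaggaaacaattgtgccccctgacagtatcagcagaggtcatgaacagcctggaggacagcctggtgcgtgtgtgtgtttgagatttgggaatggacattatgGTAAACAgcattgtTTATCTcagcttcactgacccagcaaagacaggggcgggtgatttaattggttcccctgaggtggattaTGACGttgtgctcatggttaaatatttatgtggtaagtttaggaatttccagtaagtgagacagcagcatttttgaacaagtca
The Areg window held the full response element at -61 from the start site, a sequence that 1.79% of 32851 promoter windows held, with both overlapping copies of the shorter form inside it and another at -115. The shorter form alone was in 20.8% of windows. The upstream Il1rl1 window held the GATA motif at -217, and the downstream window held it at -103, beside the forkhead motif at -117 and the short TGACG at -34. GATA was found in 11.2% of all windows, the forkhead motif in 3.65% and the STAT motif in 8.30%. These are matches of letters, and binding was not measured.

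**Figure D2:**
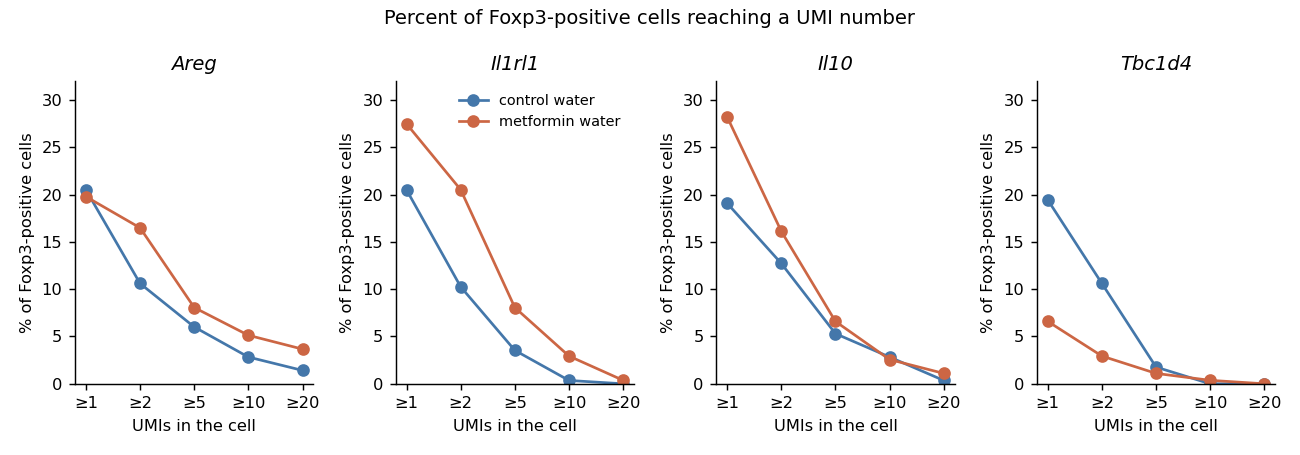
Percent of Foxp3-positive cells (283 control, 273 metformin) that reached at least 1, 2, 5, 10 or 20 UMIs of Areg, Il1rl1, Il10 and Tbc1d4. The Areg lines start together at 20.5% and 19.8% and part at 2 UMIs (10.6% and 16.5%), the Il1rl1 lines are apart from the first point, and the Tbc1d4 line of metformin lies under that of control at 1 UMI (6.59% and 19.4%).

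Il10 encodes interleukin-10, a suppressive cytokine (ENSMUSG00000016529, chromosome 1, 131019845 to 131024974, plus strand). Foxp3-positive cells held 233 Il10 UMIs in control (82.7 CPM, interval 72.4 to 94.0) and 327 in metformin (112 CPM, interval 99.8 to 124). Metformin was the higher of the 2, but the ratio of 1.35 (interval 1.14 to 1.60) did not reach 1.5, and with every cell weighted equally it was 1.02. This difference lay in the 28 and 29 Foxp3-positive cells of the cycling T cell clusters. They had 4 Il10 UMIs in control, all in 1 cell, and 86 in metformin, in 11 cells, of which 1 held 44. Outside the cycling clusters the Il10 ratio was 0.966 (interval 0.803 to 1.16).

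Tbc1d4 encodes AS160, a regulator of Rab proteins in glucose transporter traffic (ENSMUSG00000033083, chromosome 14, 101442360 to 101609191, minus strand). Of the members it did not follow the label of a regulatory T cell gene in these libraries. CD4 T cells held 1320 Tbc1d4 UMIs in control (262 CPM, interval 248 to 276) and 569 in metformin (170 CPM, interval 156 to 184). Foxp3-positive cells held 123 (43.6 CPM, interval 36.3 to 52.1) and 46 (15.7 CPM, interval 11.5 to 20.9). Tbc1d4 was therefore 5.99 times as high in CD4 T cells as in Foxp3-positive cells in control (interval 4.98 to 7.27) and 10.8 times in metformin (interval 8.0 to 14.9). In Foxp3-positive cells the metformin level was also the lower, with a ratio of 0.359 (interval 0.25 to 0.508) that stays without a call because both levels were under 50 CPM. A Tbc1d4 UMI was found in 55 control cells (19.4%) and 18 metformin cells (6.59%), and after thinning in 10.2% and 2.39%, against 0.419% and 0.167% of B-like cells. A single metformin cell held 14 of the 46 UMIs, and without the 5 richest cells of each library the ratio was 0.168 (interval 0.0923 to 0.288).

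**Figure D3:**
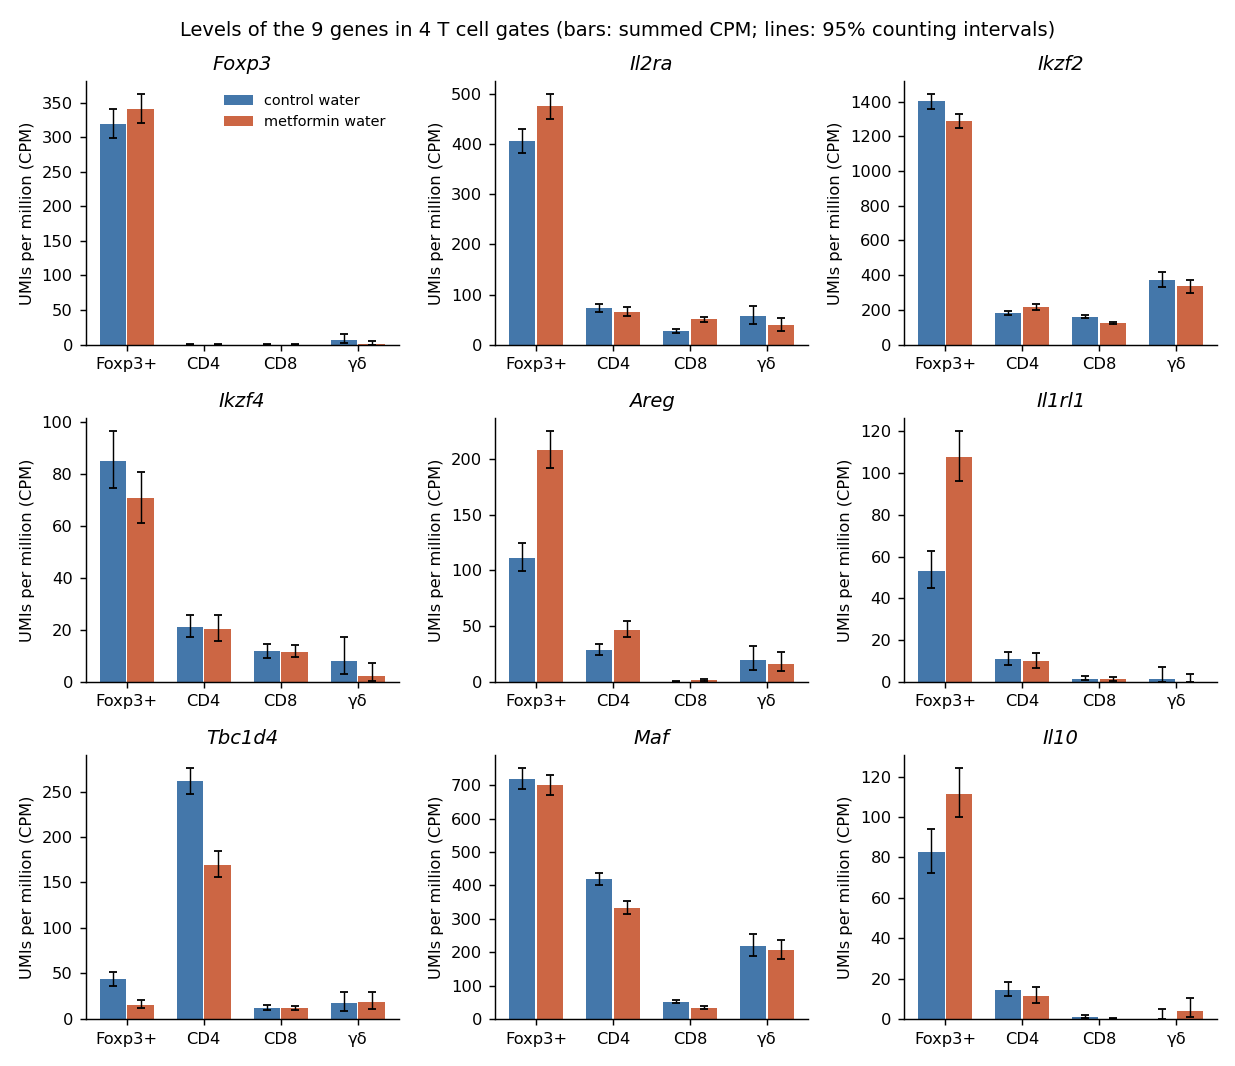
Summed level in CPM (bars, from 0) with 95% counting intervals (lines) of each gene in the Foxp3-positive, CD4, CD8 and gamma-delta T cell gates of the control and the metformin library. Bars of Foxp3-positive cells are the highest in every panel but that of Tbc1d4, where CD4 T cells reach 262 and 170 CPM. The Foxp3 panel follows from how the gates were set.

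Within each library the members set Foxp3-positive cells apart from CD4 T cells. The CD4 levels include the Treg-like cells without a Foxp3 UMI in that gate. Leaving out Foxp3, which defines the gates, 7 of the other 8 members were called higher and 1, Tbc1d4, lower in both libraries, beside 14.7% of genes called higher and 5.01% lower in control and 16% and 4.72% in metformin. In control the ratios of Foxp3-positive over CD4 T cells were 7.69 for Ikzf2 (interval 7.15 to 8.27), 5.72 for Il10 (interval 4.38 to 7.54) and 5.62 for Il2ra (interval 4.99 to 6.34). In metformin they were 5.90 (interval 5.45 to 6.40), 9.84 (interval 7.02 to 14.2) and 7.31 (interval 6.33 to 8.47). For Il1rl1 the ratio was 4.88 in control (interval 3.56 to 6.78) and 10.9 in metformin (interval 7.64 to 16.2). The level of Il1rl1 in CD4 T cells was alike in the libraries, at 10.9 and 9.84 CPM. Maf had the smallest of these ratios, 1.71 and 2.11. Areg (3.91 and 4.45) and Ikzf4 (4.02 and 3.48) lay between.

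Against CD8 T cells, 7 of the 8 members other than Foxp3 were called higher and 0 lower in both libraries, beside 20.9% of genes higher and 4.47% lower in control and 18.2% and 4.43% in metformin. Areg, Il1rl1 and Il10 were near 0 in CD8 T cells, with 1 and 10, 10 and 10, and 7 and 1 UMIs. Against gamma-delta T cells the same 7 members were called higher and 0 lower, beside 23.1% of genes higher and 10.9% lower in control and 26.4% and 10.5% in metformin. The gap was smaller there for Ikzf2 (3.74 and 3.84) and Maf (3.29 and 3.39). Il10 had 0 UMIs in control and 4 in metformin gamma-delta T cells. Tbc1d4 was under 50 CPM in all of these classes and could not be called. Its ratio over CD8 T cells was 3.52 in control (interval 2.65 to 4.69) and 1.35 in metformin (interval 0.929 to 1.94). Over gamma-delta T cells it was 2.56 (interval 1.44 to 4.95) and 0.851 (interval 0.484 to 1.56).

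The members also differed between the libraries in other T cells. In CD4 T cells 0 members were called higher and 1, Tbc1d4, lower (ratio 0.649, interval 0.587 to 0.717) of 4 with enough UMIs, beside 0.395% and 0.83% of genes. In the CD4 T-like clusters, which were drawn without the members, the Tbc1d4 ratio of 0.692 (interval 0.631 to 0.759) missed the rule. There Areg was the 1 member called, with 82 and 214 UMIs (15.7 and 61.5 CPM, ratio 3.91, interval 3.02 to 5.11), beside 0.312% of genes called higher and 0.936% lower. Without the 5 richest cells of each library that Areg ratio was 1.75 (interval 0.977 to 3.15). In the CD4 gate Areg had 144 and 157 UMIs, of which 1 control cell held 81 and 1 metformin cell 63. Maf was at 420 and 332 CPM in the CD4 gate (ratio 0.790, interval 0.734 to 0.850) and was not called.

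In CD8 T cells Il2ra was called higher and Maf lower of 3 members with enough UMIs, beside 1.43% and 0.253% of genes. Il2ra had 191 and 412 UMIs (27.9 and 50.9 CPM, ratio 1.82, interval 1.53 to 2.18). In metformin 1 cell with 159560 UMIs in all held 163 of them, and without the richest cell of each library the ratio was 1.17 (interval 0.959 to 1.42). Maf had 355 and 273 UMIs (51.8 and 33.7 CPM, ratio 0.650, interval 0.553 to 0.764), and in the CD8 T-like clusters the ratio was 0.833 (interval 0.713 to 0.973) and not called. In gamma-delta T cells 0 of 3 members with enough UMIs were called, beside 1.49% of genes higher and 4.65% lower, and the intervals there were wide (Il2ra, 44 and 38 UMIs, ratio 0.675, interval 0.425 to 1.07). In the remaining T cells, 446 in control and 434 in metformin, Il2ra (67.6 and 37.7 CPM, ratio 0.558, interval 0.446 to 0.695) and Tbc1d4 (86.7 and 46.6 CPM, ratio 0.537, interval 0.440 to 0.653) were called lower and 0 members higher, beside 1.45% of genes lower and 0.724% higher.

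The Foxp3-positive gate was not uniform, and the members differed among the clusters its cells fell in. A Treg-like cluster, led by Foxp3, Izumo1r, Tnfrsf4 and Ctla4, held 198 control and 204 metformin cells of the gate (70.0% and 74.7%). The cycling T cell clusters held 28 and 29 cells and the CD4 T-like clusters 34 and 20. In the Treg-like Foxp3-positive cells Areg had 162 and 535 UMIs (106 and 292 CPM, ratio 2.75, interval 2.30 to 3.30). In those of the cycling clusters it had 61 and 73 UMIs (80.3 and 106 CPM, ratio 1.32, interval 0.927 to 1.89). In those of the CD4 T-like clusters it had 39 and 3 UMIs, and 1 control cell of a CD8 T-like cluster held 52 more.

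The summed Il1rl1 level was higher in metformin in each of these clusters. The ratios were 1.91 in Treg-like (interval 1.51 to 2.43), 1.67 in cycling (interval 1.08 to 2.60) and 2.71 in CD4 T-like cells (interval 1.09 to 7.10). Only the Treg-like ratio rests on many cells. In the cycling cells 10 of 28 control and 8 of 29 metformin cells carried Il1rl1, and 1 metformin cell held 21 of 56 UMIs. The CD4 T-like ratio rests on 9 and 14 UMIs in 3 and 5 cells. Tbc1d4 was lower in the Treg-like cells, at 77 and 16 UMIs (50.4 and 8.72 CPM, ratio 0.173, interval 0.0943 to 0.299). In the cycling cells 15 Tbc1d4 UMIs were counted in each library (19.7 and 21.8 CPM), in 6 control cells and 2 metformin cells, of which 1 held 14. Summed over the whole Treg-like cluster, Areg (2.12) and Il1rl1 (1.79) were called higher and Tbc1d4 (0.179, interval 0.107 to 0.288) lower, beside 0.955% and 1.8% of genes.

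**Figure D4:**
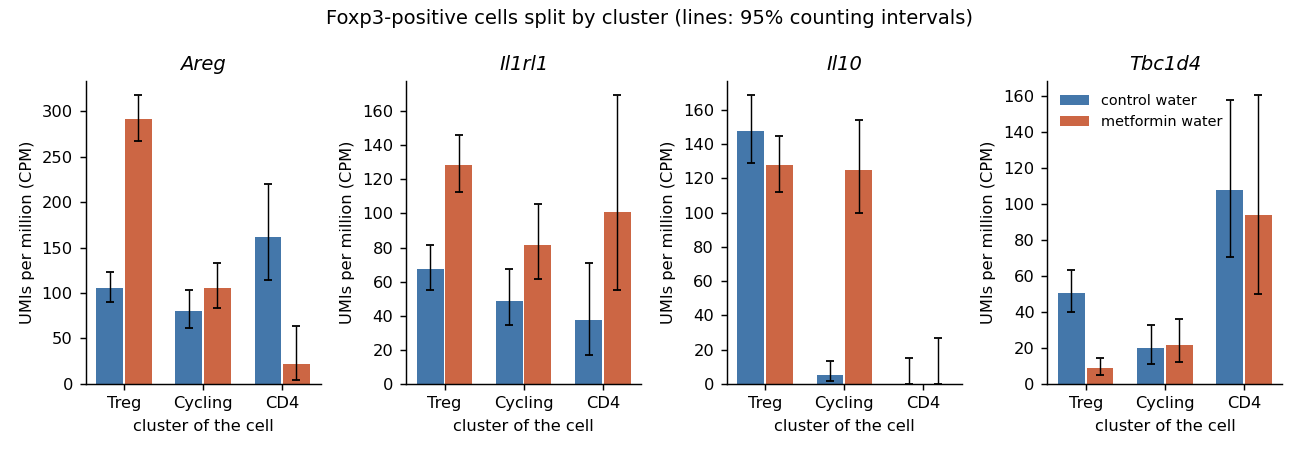
Level in CPM (bars, from 0) with 95% counting intervals (lines) of Areg, Il1rl1, Il10 and Tbc1d4 in Foxp3-positive cells that fell in the Treg-like, cycling and CD4 T-like clusters, by library. Areg stands apart in the Treg-like cells (106 and 292 CPM), Il10 in the cycling cells (5.26 and 125 CPM), and Il10 had 0 UMIs in the CD4 T-like cells of both libraries.

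Some cells of the Treg-like cluster had no Foxp3 UMI, 75 in control and 58 in metformin. These cells were shallower, with medians of 4655 and 5140 UMIs, against 7755 and 9361 in cells with 4 or more Foxp3 UMIs. They carried Ikzf2 at 1990 and 2254 CPM and Il2ra at 474 and 366 CPM. Areg had 89 and 54 UMIs in these cells (210 and 165 CPM). Most of the control UMIs came from the single Areg-rich control cell of the CD4 gate, so these levels give no direction. Il1rl1 was close (25 and 19 UMIs, 58.9 and 58.0 CPM), while Tbc1d4 had 29 and 5 UMIs (68.4 and 15.3 CPM). Ctla4, which encodes an inhibitory receptor, was at 630 and 708 CPM in them. Levels in Foxp3-positive cells need not hold for every cell of the cluster, and a missing Foxp3 UMI in a shallow cell does not show that the gene was off.

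Areg UMIs were found in a larger share of the Foxp3-positive cells that also carried Il1rl1. Of Foxp3-positive cells with an Il1rl1 UMI, 36.2% in control and 34.7% in metformin had an Areg UMI, against 16.4% and 14.1% of those without. With cells thinned to 2797 UMIs the shares were 20.2% and 23.7% against 11.3% and 11.1%. Maf was found in 96.3% and 97.4% of cells with an Il10 UMI and in 86.9% and 89.3% of those without, and after thinning in 88.3% and 90.0% against 71.3% and 74.5%. These are shares of cells within each library and carry no test. Of the 8 members other than Foxp3, the median cell had 4 in both libraries and 3 in 1 draw of 2797 UMIs a cell.

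Genes that act with the members were read in 6 lists in Foxp3-positive cells, where all genes with enough UMIs had a median log2 ratio of -0.02. Of 12 interleukin-2 pathway genes, 8 had enough UMIs and none was called, with a median log2 ratio of 0.01. Their receptor chains Il2rb (373 and 362 CPM) and Il2rg (248 and 258 CPM) and the kinase gene Jak1 (249 and 232 CPM) differed little. Of 12 interleukin-33 pathway genes, 3 had enough UMIs and 1 was called, with a median log2 ratio of 0.01. It was Klrg1, which encodes an inhibitory lectin-like receptor found on differentiated cells, with 260 and 489 UMIs (92.3 and 167 CPM, ratio 1.81, interval 1.55 to 2.11). The transcription factor genes Gata3 (124 and 121 CPM) and Rora (166 and 168 CPM) differed little, and Il5 and Il13 had 0 UMIs in both libraries.

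Of 9 genes of the epidermal growth factor family, its receptors and its releasing proteases, 1 had enough UMIs and none was called. That gene was Adam10, which encodes a releasing protease, and it had 46.1 and 53.5 CPM. Adam17, the protease that releases amphiregulin from the membrane, had 31.6 and 32.4 CPM, while the related ligand gene Hbegf had 45 and 40 UMIs. Of 11 interleukin-10 pathway genes, 7 had enough UMIs and none was called, with a median log2 ratio of 0.18, the signalling factor Stat3 being at 147 and 172 CPM, the transcription factor gene Batf at 132 and 151 CPM and the cytokine gene Tgfb1 at 201 and 190 CPM. Of 12 relatives of the members, 6 had enough UMIs and none was called, with a median log2 ratio of 0.04. Ikzf1 was at 107 and 97.9 CPM and Ikzf3, another Ikaros family gene, at 106 and 114 CPM, and the forkhead gene Foxp1 was at 99.7 and 118 CPM.

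Of 19 surface and effector genes of regulatory T cells, 14 had enough UMIs and 1 was called higher, with a median log2 ratio of 0.13. It was Gzmb, which encodes the killing protease granzyme B, with 2623 and 6839 UMIs (931 and 2333 CPM, ratio 2.51, interval 2.40 to 2.62). A Gzmb UMI was found in 55.8% and 75.8% of Foxp3-positive cells and after thinning in 48.5% and 68.0%, against 2.92% and 4.14% of B-like cells. The richest cell held 6.33% and 8.06% of its UMIs. Tnfrsf18 (890 and 922 CPM) and Tnfrsf4 (1400 and 1529 CPM), which encode costimulatory receptors, differed little (ratios 1.04 and 1.09). Ctla4 (663 and 888 CPM, ratio 1.34, interval 1.26 to 1.42) was higher without reaching the rule.

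Summed markers of other cell types and of naive T cells also differed between the Foxp3-positive cells of the libraries. Some of these lists hold genes that T cells carry themselves, so their sums do not measure other cells. In CD8 T cells the NK markers summed to 4150 and 3281 CPM and the monocyte markers to 1973 and 2317 CPM. In Foxp3-positive cells the 7 NK cell markers summed to 270 and 475 CPM (ratio 1.76, interval 1.61 to 1.93) and the 6 monocyte markers to 899 and 1339 CPM (ratio 1.49). The 4 plasma cell markers summed to 533 and 66.2 CPM (ratio 0.124), the 7 microglia markers to 248 and 114 CPM (ratio 0.457) and the 4 naive T cell markers to 232 and 160 CPM (ratio 0.690). Every NK, plasma cell, microglia and naive T cell marker had at least 1 UMI in both libraries, and of the monocyte markers 1 was at 0 in control and 2 in metformin. The gate did not exclude cells with CD8 transcripts, and 13 control and 16 metformin cells lay in CD8 T-like clusters. In Treg-like Foxp3-positive cells Cd8a was at 18.97 and 43.61 CPM and Cd8b1 at 53.6 and 102 CPM. In those of the cycling clusters Cd8a was at 26.3 and 154 CPM and Cd8b1 at 36.9 and 212 CPM. In those of the CD4 T-like clusters Cd8a had 4 and 0 UMIs and Cd8b1 18 and 19. The part of all these transcripts in the results for Areg, Il1rl1, Tbc1d4 and Gzmb was not tested. Markers of type 2 innate lymphoid cells, which are known to express both Areg and Il1rl1, summed to 293 and 291 CPM, and 3 of the 7 had no UMI in either library. Nearly all of both sums was Gata3 and Rora, at the levels given above for Foxp3-positive cells. The sums therefore do not measure transcripts of such lymphoid cells, and their part in the Areg and Il1rl1 results was not tested. Mitochondrial UMIs made up 3.57% and 3.47%, and 9.89% and 10.6% of the gate lay in cycling clusters.

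**Figure D5:**
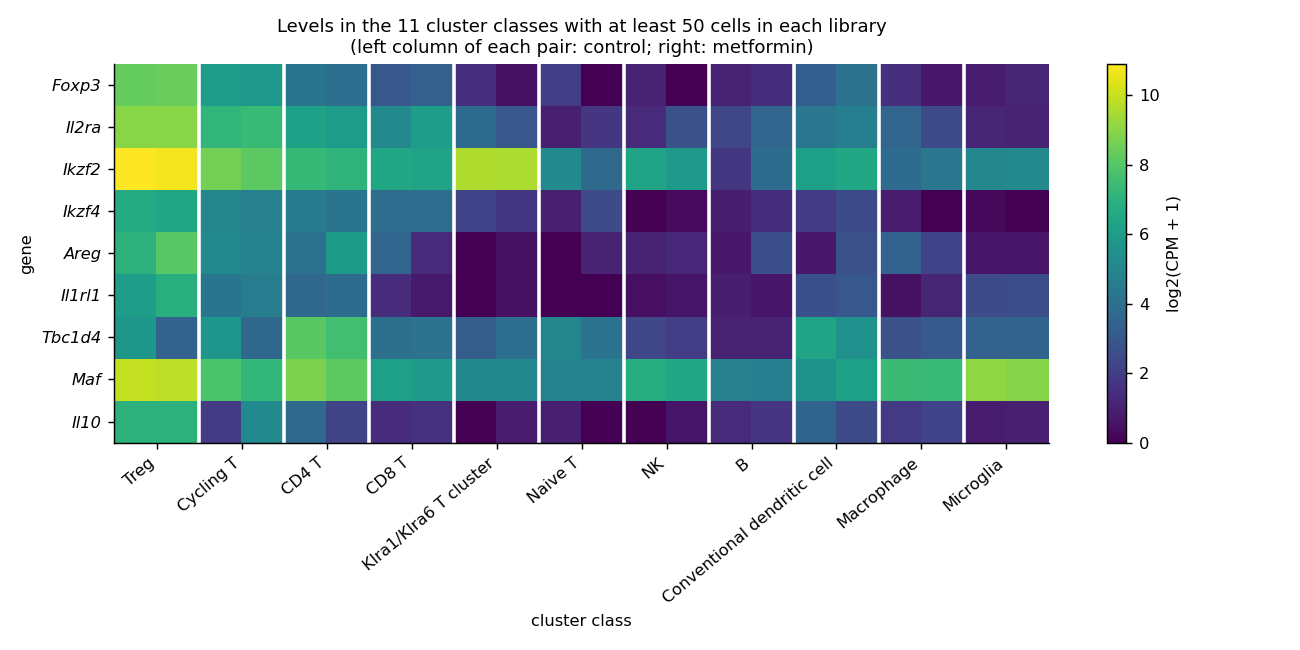
Level as log2(CPM + 1), colour, of each gene in the 11 named cluster classes that had 50 or more cells in both libraries, control on the left and metformin on the right of each pair. Colours are to be read along a row, since levels of different genes also depend on their transcripts. The Treg-like class is the brightest in every row but that of Tbc1d4, where it is the CD4 T-like class, and Ikzf2 in the Klra1/Klra6 cluster and Maf in microglia stand out elsewhere. Foxp3 was among the markers used to name the Treg-like class.

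Across the 11 named cluster classes that had 50 or more cells in both libraries, the Treg-like class had the highest level of every member but Tbc1d4 in both libraries. For Foxp3 this is no result, since Foxp3 was among the markers used to name that class. The next in order for Ikzf2 was the Klra1/Klra6 T cell cluster, with 784 CPM in control (interval 748 to 822) and 768 in metformin (interval 735 to 803), under the 1925 and 1693 CPM of the Treg-like class. For Maf the next were microglia-like cells, the brain's resident macrophages, with 552 and 490 CPM under 949 and 898. For Areg the cycling clusters came next in control (34.9 CPM, interval 27.5 to 43.7) and the CD4 T-like clusters in metformin (61.5 CPM, interval 53.6 to 70.3). For Il1rl1 the cycling clusters were next (17.9 and 22.8 CPM), and in control their interval of 12.7 to 24.5 overlapped that of CD4 T-like cells, 9.12 to 15.3. For Tbc1d4 the CD4 T-like class led with 281 and 195 CPM, before conventional dendritic cell-like cells with 82.8 and 44.4 CPM.

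Small classes held some of the highest levels. Mature dendritic cell-like cells, 43 in control and 70 in metformin, had Tbc1d4 at 828 CPM (interval 734 to 931) and 1162 CPM (interval 1080 to 1249). Innate lymphoid type 2-like cells, 7 and 5 in number, held 24 and 631 Areg UMIs and 28 and 26 Il1rl1 UMIs. In metformin 1 of these cells held 610 Areg UMIs, 38.0% of all Areg UMIs of the library. Monocyte-like cells, 90 in control and 47 in metformin, held 0 and 77 Il10 UMIs, the latter 14.4% of the Il10 UMIs of that library. In metformin this level (77 of 455512 UMIs) was above that of the Treg-like class (281 of 2176294 UMIs). Foxp3-positive cells held 54.4% of Areg UMIs in control and 38.1% in metformin. They held 32.6% and 47.4% of Il1rl1 UMIs, and 5.02% and 2.39% of Tbc1d4 UMIs. Much Il1rl1 also lay in clusters that were given no name, with 124 of 460 UMIs in control and 199 of 667 in metformin. In control this was close to the 129 UMIs of the Treg-like class. The cell with most Il1rl1 UMIs, 35 in metformin, was in an unnamed cluster.

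The genes whose levels followed each member most closely were read by Pearson's r of log2(CPM + 1) over 22 points, 11 classes in each of the libraries. Points of 1 library share its preparation and depth, and r is given as a description. Foxp3 ran closest to Tnfrsf4 (0.95), Ctla4 (0.94) and Neb (0.94), and Il2ra to Ctla4 (0.95), Ikzf4 (0.94) and Foxp3 (0.92). Ikzf4 ran with Sdcbp2 (0.96), Ctla4 (0.95) and Il2ra (0.94), and Ikzf2 less closely with Rora (0.83), Tnfrsf9 (0.81) and Tnfrsf18 (0.81). Areg ran with Tnfrsf4 (0.90), C1qtnf12 (0.88) and Twsg1 (0.88), and Il1rl1 with Itgb8 (0.90), Foxp3 (0.90) and Sla (0.88). Il10 ran with Ncmap (0.92), Lrrc32 (0.89) and Foxp3 (0.88), and Maf with Slc26a2 (0.92), Itgav (0.90) and Gna15 (0.89). Tbc1d4 ran with Ramp3 (0.85), Tnfsf11 (0.78) and Cd40lg (0.77).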

How the data were processed

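Whole UMI counts for every gene in every barcode were deposited by the authors, who made them with Cell Ranger and Seurat on the build mm10, per the submitters' processing notes; the matrix software version was 3.0.0 per the file headers. Aligner settings and the counting annotation are not given in the sources used here. Groups were taken from the drinking water given in the labels. The tables held 6174 control and 5473 metformin barcodes with 49651404 and 47142356 UMIs.

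Barcodes with fewer than 300 genes or over 10% mitochondrial UMIs were left out, and Scrublet in scanpy 1.11.5 (expected rate 5%) removed 62 and 37 doublets. Leiden clusters (2000 variable genes without the 9 members, 30 components, 15 neighbours, resolution 1.0 and, for lymphoid cells, 1.5) gave 41 clusters, read against marker lists into 19 named classes. Classes were rebuilt here and may differ from those of the study. CPM carry exact Poisson intervals, shares Clopper-Pearson intervals and ratios exact conditional intervals, at 95%. Thinned shares are exact hypergeometric means over draws. Intervals treat UMIs as independent and leave out the spread between cells, animals and sorts. The counting and calling steps were tested on simulated data with independent counts. Uneven spread of UMIs between cells was not part of that simulation.

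The members and lists were chosen with earlier results of these data known. Named genes are the members, list genes meeting the size rule (at most 4 a list), the 3 list genes with most UMIs in Foxp3-positive cells, and the 3 genes closest to each member by r. Ctla4, Il5 and Il13 in the lists and the small classes were chosen after their values were seen. Gene positions are from GENCODE vM21 (GRCm38, the build of mm10). Alternatives were other gates and clusters, a mitochondrial limit of 5%, no doublet removal, a minimum of 20 CPM and 10 UMIs, equal weight for cells and richest cells left out.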

Additional observations from a re-analysis of the deposited data

How the results depend on the processing

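Of the alternative values for the counts of called members and the share of Foxp3-positive cells, 41 stayed close to the values given and 8 moved. The ratio of shares lay between 1.07 and 1.20. With cells weighted equally, 1 member instead of 2 was called in Foxp3-positive cells (Il1rl1), and 0 instead of 2 in CD8 T cells. In the CD4 T-like clusters the count was again 1, but of Areg higher in place of Tbc1d4 lower. With a minimum of 20 CPM and 10 UMIs, 2 members instead of 1 were called in CD4 T cells. At that minimum Tbc1d4 in Foxp3-positive cells also meets the rule, as lower (43.6 and 15.7 CPM, ratio 0.359, upper limit 0.508). That no member was called lower in Foxp3-positive cells therefore rests on the minimum of 50 CPM. In CD8 T cells the count was 1 by cluster, 0 without the richest cell of each library and 0 without the 5 richest, the last of these chosen after seeing the data. In gamma-delta T cells the count was 2, both lower, at 5% mitochondrial UMIs at most and 1, lower, without the richest cell, against 0. The Il2ra ratio in CD8 T cells turned from 1.82 to 0.934 with cells weighted equally. Of the ratios of single members, 292 values stayed close, 58 moved and 1 turned. The cause was not tested beyond the cells left out. No paired analysis was possible because each group is 1 library, and for the same reason no library could be left out. Areg, Il1rl1 and Il10 each had at most 16 UMIs in a library in CD8 and gamma-delta T cells, too few for a call. The CD8 T cells were not shallow, with medians of 8440 and 9594 UMIs. The 101 and 120 gamma-delta T cells give wide intervals.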
